A study of Mus musculus with 6 samples.

Results

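The genes described here are 10 that mark endothelial cells, the cells that line blood vessels and the inner surface of the heart: Kdr, Flt1, Cdh5, Pecam1, Tek, Tie1, Sox17, Sox18, Erg and Emcn. They were chosen by name, with earlier results of these data known. Each symbol matched exactly 1 of the 49315 rows of a table of read counts per Ensembl gene. The table holds 6 mouse RNA-seq libraries from wild-type tail tip skin, 2 for each of 3 groups. Control fibroblasts received negative lentiviral vectors and were sampled on day 0. Early cells received vectors for CRISPR activation, in which a Cas9 that does not cut carries activators to the promoters of chosen genes, and were sampled on day 7. Late cells received the same kind of vectors, were taken as isolated colonies, carry the label of induced cardiac progenitors and were sampled on day 22. The series title calls the product cardiovascular progenitor cells, so the question put to these genes is whether transcripts of the vessel lining appear along the way. A protocol field names CRISPR activation (SAM) vectors for all 6 samples, whereas the treatment given for fibroblasts is the negative vectors. The sources used here do not give the genes targeted by the guides, the strain, age or sex of the mice, or the number of animals behind a library. The labels call early replicate 1 early reprogrammed and early replicate 2 only partly so, and the cell type of both is still given as fibroblasts. Early and late columns were matched to samples through abbreviations that differ from the titles, and a wrong match would swap these groups.

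Endothelial cells are held in their fate by a small set of signals. Vascular endothelial growth factor acts through the receptors Kdr and Flt1, angiopoietins act through Tek, and Tie1 is a partner of Tek. Cdh5 and Pecam1 join neighbouring cells, Emcn is a sialomucin of their surface, and Erg, Sox17 and Sox18 are transcription factors active in them. In the embryo Kdr also marks mesoderm that gives rise to both heart and vessels, Sox17 is also a factor of the endoderm, and Pecam1, Tie1 and Tek are also known from blood cells, so single members are less specific than the whole set.

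Levels are given as CPM, the count of a gene scaled to a common library size with edgeR's TMM factors. The 2 late libraries are reported apart because they differed widely. Total counts were between 20172874 and 40122999 per library, and 3 counts, taken as the limit that a count of 0 allows, came to between 0.0842 and 0.142 CPM. Mitochondrially encoded transcripts took 10.3% of the counts of late replicate 2 and between 1.48% and 2.16% of the other 5 libraries. Nothing in the labels ties the replicates to separate cultures or animals. The spread behind each p-value is that between libraries and may be technical. Summed over 8 fibroblast markers, levels were 4054 and 6285 CPM in fibroblasts, 2755 and 12251 CPM in early cells, 2550 CPM in late replicate 1 but 3197 CPM in late replicate 2. In such bulk RNA, fewer cells of a type and less RNA per cell cannot be told apart.

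All 10 genes stood highest in late replicate 2. They summed to 7.72 and 12.9 CPM in fibroblasts, 10.7 and 13.3 CPM in early cells, 36.0 CPM in late replicate 1 but 814 CPM in late replicate 2. Late replicate 2 was the highest of the 6 libraries for 26.1% of all genes with a count and for 21.2% of the genes that entered the test. Each of the 10 was at least 4-fold higher in late replicate 2 than in late replicate 1, a step seen in 6.38% of genes with a count and 8.62% of tested genes. Each was also at least 4-fold above the fibroblast mean there, against 8.53% of genes with a count and 12.7% of tested genes. In late replicate 1 the set split. Kdr, Flt1, Cdh5, Pecam1 and Sox17 were at least 4-fold above the fibroblast mean, 5 of 10 against 5.75% of genes with a count and 10.4% of tested genes, while Tie1, Sox18, Erg and Emcn had between 0 and 7 counts and Tek was below fibroblasts. Leaving late replicate 2 aside, late replicate 1 was the highest library for 6 of 10 (20.1% of genes with a count, 15.1% of tested genes). For these shares, means under 0.142 CPM were set to that value. The median log2 ratio of the 10 genes to the fibroblast mean was 7.50 in late replicate 2, with 1.87 in late replicate 1, against 0.07 and -0.03 over all tested genes.

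**Figure D1:**
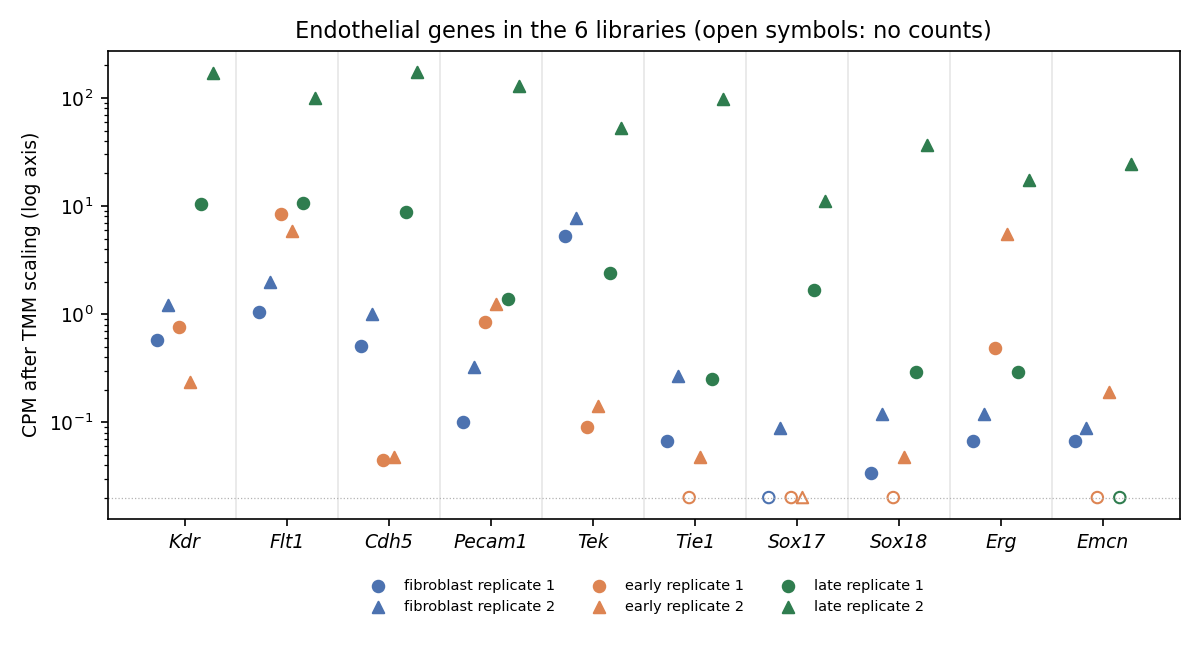
CPM after TMM scaling (log axis) of the 10 endothelial genes in each of the 6 libraries, with colours for groups, circles for replicate 1, triangles for replicate 2, and open symbols on the dotted line for libraries without counts. The green triangle of late replicate 2 is the highest point for every gene, from 11.2 CPM for Sox17 to 174 CPM for Cdh5, and the green circle of late replicate 1 lies above fibroblasts for Kdr, Flt1 and Cdh5 but below them for Tek.

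No member passed the test in any of the 3 comparisons of groups. The test was edgeR's quasi-likelihood test with Benjamini-Hochberg adjustment over 16688 genes, called at an adjusted p under 0.05. Of the 10 members, 7 had enough counts to be tested, and Tie1, Sox18 and Emcn, at a high level in late replicate 2 only, did not enter it. Sox17, with 0 and 3 counts in fibroblasts and 0 in each early library, entered only through its late counts. It is among the members with a low unadjusted p in both late comparisons below, where the filter itself favoured a rise. Between late cells and fibroblasts 0 of 7 were called, with 6 at an unadjusted p under 0.05, where 1.42% of all tested genes were called (0.641% higher and 0.779% lower) and 32.5% had such an unadjusted p. DESeq2, used as another tool, called 8 of 10 in that comparison, all higher in late cells. It called far more genes at large than edgeR, 4703 of 31952, of which 2507 were higher. Without late replicate 1, the edgeR log2 fold changes of these 7 over fibroblasts lay between 2.95 for Tek and 9.11 for Pecam1. That fit rests on a single late library whose spread was taken from the other groups. Between early cells and fibroblasts 0 of 7 were called and 1 had an unadjusted p under 0.05 (1.53% of tested genes called, 0.695% higher and 0.833% lower, 29.8% at the unadjusted level). DESeq2 called 4067 of 31952 genes there (1988 higher and 2079 lower), and of the 10 members 2, Tek lower and Erg higher. Without late replicate 1, and also without late replicate 2, edgeR called 1 of them, Tek. Between late and early cells 0 of 7 were called and 6 had an unadjusted p under 0.05 (0.00% of tested genes called, 10.2% at the unadjusted level). DESeq2 called 7 of 10, all higher in late cells, beside 1110 of 31952 genes, of which 967 were higher. Without late replicate 1 the edgeR log2 fold changes over early cells lay between 2.45 for Erg and 11.6 for Cdh5.

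The groups did not overlap for several members. Both late libraries were above both fibroblast libraries for 7 of the 10, namely Kdr, Flt1, Cdh5, Pecam1, Sox17, Sox18 and Erg, and for 28.1% of all genes with a count and 35.7% of tested genes. For Sox18 and Erg this rests on 7 counts each in late replicate 1 against 4 each in fibroblast replicate 2. Both late libraries were below both fibroblast libraries for 0 of 10 (20.9% and 32.9%). Both late libraries were above both early libraries for 8 of 10, all but Erg and Emcn, against 15.6% of genes with a count and 16.1% of tested genes. Of these 8, some parted by few counts between late replicate 1 and early replicate 2: Pecam1 33 against 26, Sox18 7 against 1 and Tie1 6 against 1. Both early libraries were above both fibroblast libraries for Flt1, Pecam1 and Erg, 3 of 10 against 22.5% of genes with a count and 32.3% of tested genes, and below them for Cdh5, Tek and Tie1, 3 of 10 against 23.1% and 34.4%. The shares for the early cells thus lay near those of genes at large.

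Kdr is the main signalling receptor for vascular endothelial growth factor (ENSMUSG00000062960, GRCm38 chromosome 5, 75932827 to 75978458, minus strand). It was at 0.571 and 1.21 CPM in fibroblasts, 0.757 and 0.237 CPM in early cells, 10.4 CPM in late replicate 1 but 170 CPM in late replicate 2. Fibroblast and early values overlapped, and both late libraries were above all 4 of them. Over the pooled fibroblast counts the ratio was 187 in late replicate 2 (exact 95% counting interval 144 to 247) and 11.5 in late replicate 1 (8.58 to 15.5). The fitted log2 fold change of late cells over fibroblasts was 6.65 ± 1.57 (SE, edgeR adjusted p = 0.0758), and 3.53 without late replicate 2 (edgeR adjusted p = 0.119). Ranges in brackets after a ratio are such intervals throughout, and cover counting error only.

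Flt1, the second receptor, binds the growth factor tightly and also occurs in a soluble form that traps it (ENSMUSG00000029648, chromosome 5, 147561604 to 147726011, minus strand). It was at 1.04 and 2.0 CPM in fibroblasts, 8.51 and 5.82 CPM in early cells, 10.6 CPM in late replicate 1 but 100 CPM in late replicate 2. Both early libraries were above both fibroblast libraries, and late replicate 1 was close to early replicate 1. The log2 fold change was 2.23 ± 1.06 for early cells over fibroblasts (SE, edgeR adjusted p = 0.226) and 5.18 ± 1.19 for late cells over fibroblasts (edgeR adjusted p = 0.0732). Without late replicate 2 the late value was 2.79 (edgeR adjusted p = 0.107). Of all reads on the 10 genes, the share of Flt1 was 79.3% and 43.8% in early cells, set against 13.5% and 15.5% in fibroblasts. Tek held 68.3% and 59.6% of these reads in fibroblasts but 0.830% and 1.07% in early cells, so its fall also raises the share of Flt1.

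Tek, the receptor of angiopoietins, followed another course (ENSMUSG00000006386, chromosome 4, 94739289 to 94874976, plus strand). It was at 5.27 and 7.68 CPM in fibroblasts, 0.0891 and 0.142 CPM in early cells, 2.38 CPM in late replicate 1 but 53.1 CPM in late replicate 2. Early libraries had 2 and 3 counts, against 157 and 261 counts in fibroblasts. Tek thus made up 0.830% and 1.07% of all reads on the 10 genes in early cells, set against 68.3% and 59.6% in fibroblasts. The fitted log2 fold change was -5.76 ± 1.66 for early cells over fibroblasts (SE, edgeR adjusted p = 0.0997), and the adjusted p was 0.0336 without late replicate 1, 0.0352 without late replicate 2 and 0.000400 with DESeq2. The late libraries lay on either side of fibroblasts. Their ratios to fibroblasts were 8.11 in late replicate 2 (7.29 to 9.03) and 0.363 in late replicate 1 (0.270 to 0.479). The fitted value of 2.10 ± 1.29 for late cells over fibroblasts (edgeR adjusted p = 0.300) turned to -1.45 without late replicate 2 (edgeR adjusted p = 0.223) and was 2.95 without late replicate 1 (edgeR adjusted p = 0.0399).

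Tie1, a receptor that forms complexes with Tek, was nearly without reads outside late replicate 2 (ENSMUSG00000033191, chromosome 4, 118471191 to 118490061, minus strand). Its counts were 2 and 9 in fibroblasts, 0 and 1 in early cells, 6 in late replicate 1 and 3472 in late replicate 2, where it stood at 97.5 CPM. Late replicate 2 exceeded late replicate 1 390-fold (179 to 1063). Late replicate 1 against fibroblasts was 1.45 (0.440 to 4.28), an interval that spans no difference.

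**Figure D2:**
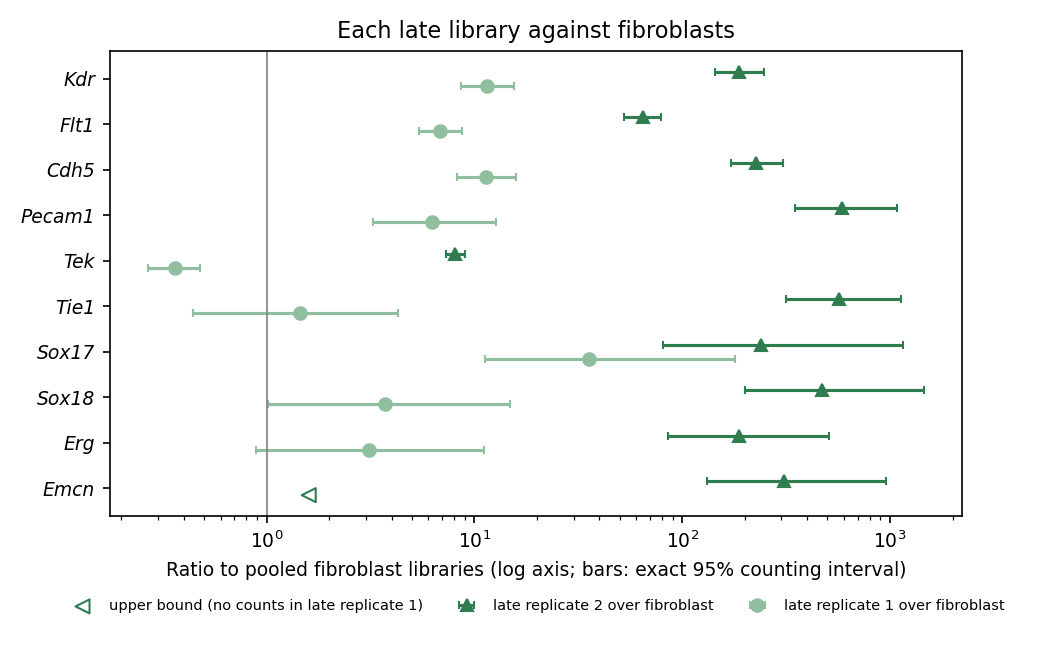
Ratio of each late library to the pooled fibroblast libraries for the 10 endothelial genes (log axis, bars for exact 95% counting intervals, vertical line at no difference). Late replicate 2 (dark triangles) lies at 8.11 for Tek and at 64.4 or more for the other 9, while late replicate 1 (pale circles) ranges from 0.363 for Tek to 35.4 for Sox17, and the open arrow marks an upper bound of 1.60 for Emcn, which had no counts there.

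The promoters of these 4 receptors are shown because they are the paired receptors whose values parted in late replicate 1, with reads for Kdr and Flt1, fewer for Tek and nearly none for Tie1. Each runs from 250 bases before to 50 bases after the start used for its entry, 5′ to 3′ on the gene's strand. Entries are from RefSeq on GRCm38.p6, and 6 of the 10 members had one. For Tie1 the gene as placed above starts at 118490061 on the minus strand, so most of its window lies within the gene. Capitals mark GGAAG, a core of the sites bound by ETS factors such as Erg, or its reverse complement CTTCC.
Kdr, chr5:75978406-75978705, minus strand: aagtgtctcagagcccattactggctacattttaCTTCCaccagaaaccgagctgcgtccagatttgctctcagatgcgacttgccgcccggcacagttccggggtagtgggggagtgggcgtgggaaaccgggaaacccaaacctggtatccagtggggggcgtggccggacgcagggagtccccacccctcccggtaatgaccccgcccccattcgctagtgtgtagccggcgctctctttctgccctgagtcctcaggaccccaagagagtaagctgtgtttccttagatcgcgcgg
Flt1, chr5:147725962-147726261, minus strand: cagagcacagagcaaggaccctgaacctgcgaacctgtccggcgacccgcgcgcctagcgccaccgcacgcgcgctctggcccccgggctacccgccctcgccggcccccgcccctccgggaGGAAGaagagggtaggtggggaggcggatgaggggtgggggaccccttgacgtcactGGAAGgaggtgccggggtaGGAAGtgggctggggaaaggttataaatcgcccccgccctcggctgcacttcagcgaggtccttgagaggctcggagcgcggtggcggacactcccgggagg
Tek, chr4:94739039-94739338, plus strand: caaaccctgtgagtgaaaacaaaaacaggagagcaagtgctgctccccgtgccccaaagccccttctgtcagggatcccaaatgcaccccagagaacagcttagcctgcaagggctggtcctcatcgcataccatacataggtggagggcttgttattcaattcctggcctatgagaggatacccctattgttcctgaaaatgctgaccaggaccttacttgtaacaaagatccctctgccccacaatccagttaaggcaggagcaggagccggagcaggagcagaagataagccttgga
Tie1, chr4:118489800-118490099, minus strand: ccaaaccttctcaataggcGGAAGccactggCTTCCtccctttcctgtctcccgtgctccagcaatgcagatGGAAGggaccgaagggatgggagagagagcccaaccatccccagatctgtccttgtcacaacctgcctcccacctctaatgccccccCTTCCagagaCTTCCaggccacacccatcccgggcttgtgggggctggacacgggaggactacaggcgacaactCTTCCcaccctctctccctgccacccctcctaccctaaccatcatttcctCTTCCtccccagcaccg
Counted on both strands, GGAAG occurred 1 time for Kdr, 3 times for Flt1, 0 times for Tek and 7 times for Tie1, and 71.4% of all 32851 promoters in the table held it at least once. The GATA motif AGATAA occurred in the window of Tek and not in those of the other 3, against 11.2% of all promoters. The SOX motif ACAAT also occurred among the 4 only for Tek, 2 times, against 31.0% of all promoters. Each motif was searched as these letters on both strands, and none is part of another; a match describes the letters and is not a measured site.

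Cdh5 encodes VE-cadherin, the adhesion protein of endothelial junctions (ENSMUSG00000031871, chromosome 8, 104101625 to 104144511, plus strand). It was at 0.504 and 1.0 CPM in fibroblasts, 0.0445 and 0.0473 CPM in early cells, 8.71 CPM in late replicate 1 but 174 CPM in late replicate 2. Each early library had 1 count, so both were below both fibroblast libraries, and both late libraries were above all others. The log2 fold change of late cells over fibroblasts was 6.91 ± 1.57 (SE, edgeR adjusted p = 0.0726), and 3.52 without late replicate 2 (edgeR adjusted p = 0.0915). Early cells against fibroblasts stood at a ratio of 0.0597 (0.00704 to 0.228, edgeR adjusted p = 0.244). Over the 2 counts of the early libraries together, late replicate 1 had a ratio of 190 (interval 51.9 to 1578).

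Pecam1 is an immunoglobulin-type adhesion molecule of endothelial cells, platelets and leukocytes (ENSMUSG00000020717, chromosome 11, 106654217 to 106750628, minus strand). It was at 0.101 and 0.324 CPM in fibroblasts, 0.846 and 1.23 CPM in early cells, 1.38 CPM in late replicate 1 but 129 CPM in late replicate 2. Late replicate 1 was no further from early replicate 2 than the early libraries were from each other, and the counting interval of late replicate 1 over early cells, 0.824 to 2.13, spanned no difference. Late replicate 2 exceeded late replicate 1 93.9-fold (66.8 to 137), compared with 19.96 for Cdh5 (17.4 to 23.0) and 16.3 for Kdr (14.4 to 18.6). The fitted log2 fold change of late cells over fibroblasts was 8.22 ± 2.30 (SE, edgeR adjusted p = 0.0897), and 2.65 without late replicate 2 (edgeR adjusted p = 0.157).

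Emcn, a surface sialomucin of capillary and venous endothelium, had no counts in late replicate 1 (ENSMUSG00000054690, chromosome 3, 137341067 to 137432185, plus strand). Its counts were 2 and 3 in fibroblasts, 0 and 4 in early cells and 864 in late replicate 2, where it stood at 24.3 CPM. Late replicate 2 was thus at least 194-fold higher than late replicate 1, computed with 3 counts in that library. For late replicate 1 a count of 0 allows up to 0.125 CPM.

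Among the transcription factors, Sox17 had reads in both late libraries and almost none elsewhere (ENSMUSG00000025902, chromosome 1, 4490931 to 4497354, minus strand). Its counts were 0 and 3 in fibroblasts, 0 and 0 in early cells, 40 in late replicate 1 and 399 in late replicate 2, or 1.67 and 11.2 CPM in the late libraries. Over the 3 fibroblast counts the ratio was 238 in late replicate 2 (80.9 to 1160) and 35.4 in late replicate 1 (11.3 to 179), with an edgeR adjusted p of 0.0877 for late cells over fibroblasts. Without the filter on low counts that adjusted p was 0.0212. Over early cells, late replicate 2 was at least 163-fold higher and late replicate 1 at least 24.2-fold higher, computed with 3 counts over the early group. Its late libraries stood nearest to each other of all 10 genes, at a ratio of 6.72 (4.85 to 9.55). A transcript on the opposite strand, Gm37587, shares 804 exonic bases with Sox17 and had 5 counts in late replicate 2 and 0 in the other libraries; the sources used here do not say whether the counting used strand.

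Sox18, a related factor of vessel and lymphatic development, was high in late replicate 2 only (ENSMUSG00000046470, chromosome 2, 181669836 to 181671640, minus strand). Its counts were 1 and 4 in fibroblasts, 0 and 1 in early cells, 7 in late replicate 1 and 1315 in late replicate 2, which came to 36.9 CPM. The 7 counts of late replicate 1 gave a ratio of 3.72 to fibroblasts with a counting interval of 1.02 to 14.9.

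Erg, an ETS factor that maintains endothelial identity, was the member that set the early libraries apart from each other (ENSMUSG00000040732, chromosome 16, 95359169 to 95586593, minus strand). It was at 0.0671 and 0.118 CPM in fibroblasts, 0.490 and 5.54 CPM in early cells, 0.292 CPM in late replicate 1 but 17.6 CPM in late replicate 2. Early replicate 2 exceeded early replicate 1 11.3-fold (6.09 to 23.3) and also above late replicate 1. The fitted log2 fold change was 4.95 ± 2.23 for early cells over fibroblasts (SE, edgeR adjusted p = 0.208, DESeq2 adjusted p = 0.0262) and 6.52 ± 2.35 for late cells over fibroblasts (edgeR adjusted p = 0.133). Late over early cells it was 1.57 ± 1.83 (edgeR adjusted p = 0.824) and turned to -3.35 without late replicate 2 (edgeR adjusted p = 1).

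**Figure D3:**
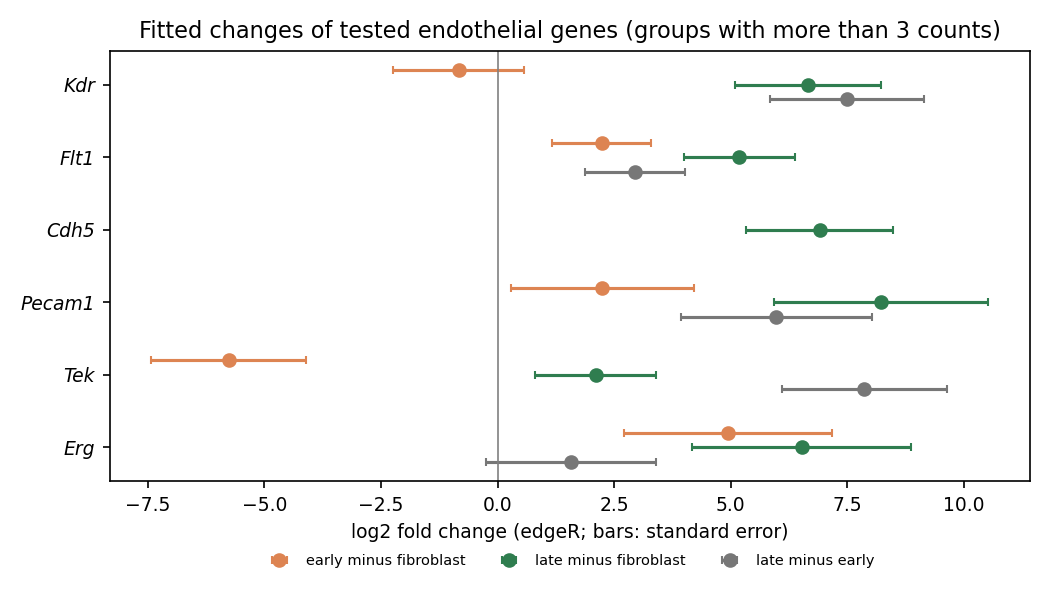
Fitted log2 fold changes (edgeR, bars for standard errors) of tested endothelial genes in 3 comparisons, drawn only where both groups had more than 3 counts. Values of late cells over fibroblasts lie between 2.10 for Tek and 8.22 for Pecam1, those of early cells over fibroblasts between -5.76 for Tek and 4.95 for Erg, and none passed the adjusted threshold.

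Set against each other per length, the 10 genes did not keep the same order in the late libraries. As a level in CPM per kilobase of exon, Cdh5 was highest in late replicate 2 at 41.4, followed by Sox18 at 22.8, Pecam1 at 20.7, Tie1 at 19.8 and Kdr at 18.8. In late replicate 1 the order was Cdh5 at 2.07, Kdr at 1.15, Flt1 at 0.784, Tek at 0.504 and Sox17 at 0.349. Sox18 stood at 0.180 and Tie1 at 0.0509 CPM per kilobase there. In early cells Flt1 (0.630 and 0.431) and, in early replicate 2, Erg (1.60) led, and in fibroblasts Tek led with 1.12 and 1.63. With 1 library each, neighbours in these orders have no replicate error to be set against.

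Reads of some other cell types, but not of all those listed, were also high in late replicate 2. Summed over 8 cardiomyocyte markers, levels were 17.0 and 122 CPM in fibroblasts, 14.8 and 51.2 CPM in early cells, 74.4 CPM in late replicate 1 but 47426 CPM in late replicate 2, the highest library for all 8. Erythroid and platelet markers summed to 699 CPM over 9 genes in late replicate 2, and to between 6.01 and 72.8 CPM in the other 5 libraries. Hbb-bs, an adult beta globin, made up 572 CPM of the sum in late replicate 2. That library was the highest for 5 of these 9 genes, and for 26.1% of all genes with a count. Adipocyte markers, 5 genes, summed to 1893 CPM in late replicate 2, against 2.09 to 48.2 CPM elsewhere, and all 5 were highest there. Leukocyte markers, 10 genes, summed to 191 CPM in late replicate 2 and 71.4 in late replicate 1, below the 279 and 1147 CPM of fibroblasts. Gene by gene, 9 of these 10 were at least 4-fold higher in late replicate 2 than in late replicate 1, against 6.38% of genes with a count. Their median log2 ratio between the 2 late libraries was 4.60, with 5.20 for the endothelial genes. Late replicate 1 held 266 CPM of 6 keratinocyte and epithelial markers and 92.6 CPM of 6 endoderm markers, with Sox17 at 1.67 CPM beside them, while late replicate 2 held 82.4 and 47.0 CPM of these lists. Of 51 tested genes on the 8 lists of other cell types, edgeR called 2 in early cells and 4 in late cells over fibroblasts, beside 1.53% and 1.42% of all tested genes. Foxa2, an endoderm factor, rose in early cells (log2 fold change 7.12 ± 1.02, SE, adjusted p = 0.0484) and in late cells (7.26 ± 1.02, adjusted p = 0.0485) over fibroblasts. Rgs5, a pericyte gene, likewise rose in both (6.70 ± 0.87 and 6.89 ± 0.88, edgeR adjusted p = 0.0438 and 0.0468). Its list did not rise with it: of 9 smooth muscle and pericyte markers, 2 were above both fibroblast libraries in early cells and 5 below (22.5% and 23.1% of genes with a count). The median log2 ratio of these 9 to the fibroblast mean was -3.06 in early cells, -1.02 in late replicate 1 and -0.60 in late replicate 2. The epithelial genes Krt8 (8.10 ± 0.81, edgeR adjusted p = 0.0349) and Cdh1 (edgeR adjusted p = 0.0468) rose in late cells. Over the 2 fibroblast counts of Cdh1 the ratio was 210.5 in late replicate 2 (57.6 to 1748) and 641 in late replicate 1 (176 to 5306). These 6 calls were all lost without either fibroblast library (edgeR adjusted p from 0.260 to 0.309). Without late replicate 2 the late calls of Foxa2, Rgs5 and Cdh1 were lost (0.0798, 0.0704 and 0.0704), without early replicate 1 the early calls of Foxa2 and Rgs5 (0.0754 and 0.0859), and without late replicate 1 the early call of Foxa2 (0.0517). The part of any of these cell types in the endothelial values was not tested.

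**Figure D4:**
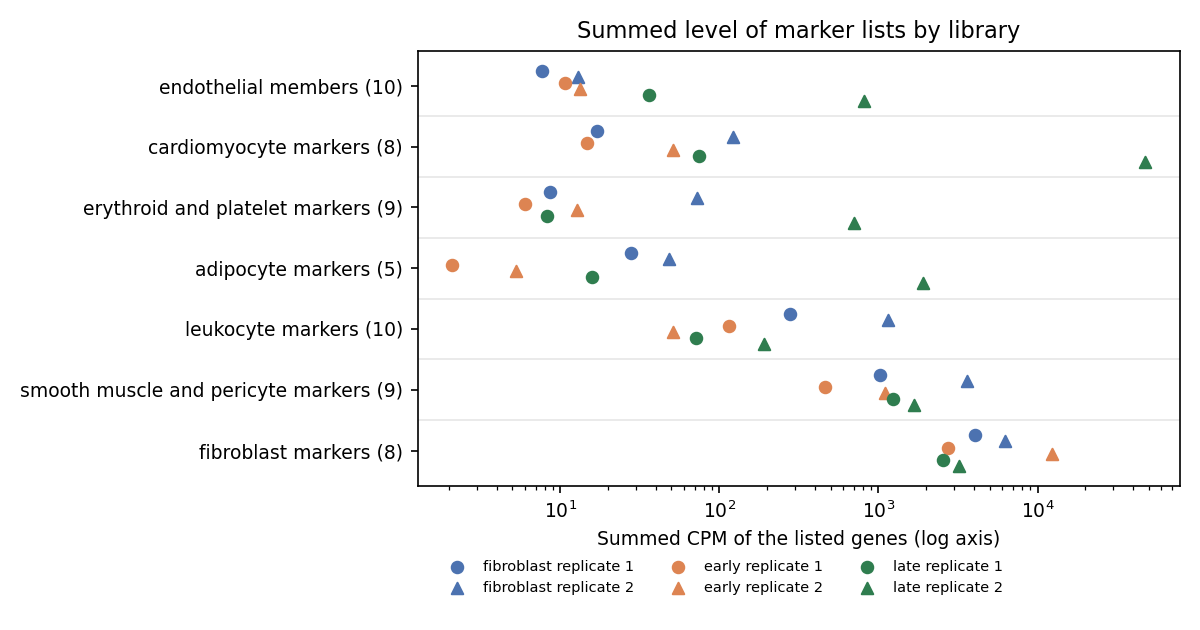
Summed CPM (log axis) of 7 marker lists, with the number of genes in brackets, in each of the 6 libraries, coloured by group with circles for replicate 1 and triangles for replicate 2. Late replicate 2 stands to the right of all other libraries for the endothelial, cardiomyocyte, erythroid and platelet, and adipocyte lists, and not for the leukocyte, smooth muscle and pericyte, or fibroblast lists.

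The low counts of endothelial genes in fibroblast replicate 2 were compared with those of the 8 cardiomyocyte markers. For those 8 genes the count in fibroblast replicate 2 was a near-constant share of the count in late replicate 2, between 0.233% and 0.287%, and in fibroblast replicate 1 between 0.0258% and 0.0472%. In fibroblast replicate 2 Pecam1 stood at 0.239% (11 counts), Tie1 at 0.259% (9), Sox18 at 0.304% (4) and Emcn at 0.347% (3). Such counts are too few to place a gene inside or outside so narrow a range. Cdh5, Erg, Kdr and Sox17 stood at 0.549% to 0.752%, Flt1 at 1.91% and Tek at 13.8%. Of these, Erg and Sox17 had only 4 and 3 counts, so the same limit holds for them. In late replicate 1 the cardiomyocyte markers had between 0.0684% and 0.324% of their late replicate 2 counts. Kdr was at 4.13% there, Flt1 at 7.13%, Cdh5 at 3.37%, Tek at 3.01% and Sox17 at 10.03%, all above that range, while Tie1 at 0.173% lay within it. Erg at 1.12% (7 counts), Pecam1 at 0.717% (33) and Sox18 at 0.532% (7) were above the range as well, and Emcn had no counts. Tie1 had 6 counts there, so its place, like those of Erg and Sox18, is only loosely set. The origin of this constant share was not tested.

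**Figure D5:**
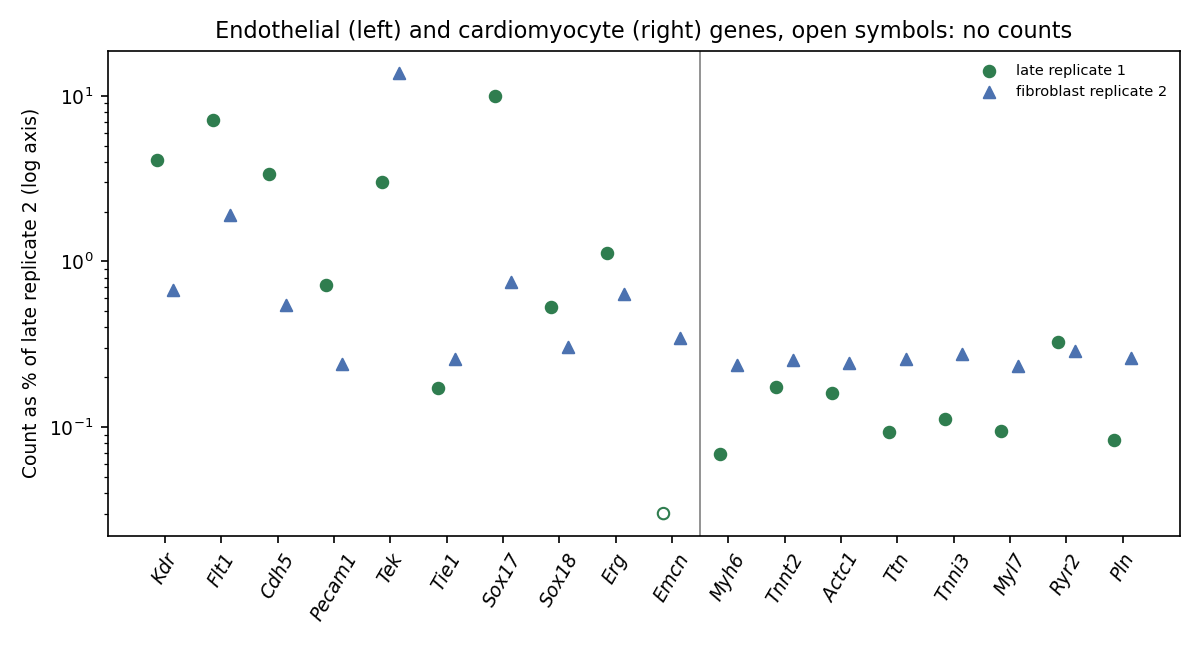
Count of each gene in late replicate 1 (circles) and fibroblast replicate 2 (triangles) as a percentage of its count in late replicate 2 (log axis), for the 10 endothelial genes left of the line and 8 cardiomyocyte markers right of it. The triangles of the cardiomyocyte markers lie on a level line between 0.233% and 0.287%, while the endothelial genes spread from 0 to 10.03% in late replicate 1 and from 0.239% to 13.8% in fibroblast replicate 2.

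Ligands and co-receptors of the same pathways showed 0 of 12 genes called in each comparison (edgeR), where 1.53% (early over fibroblasts), 1.42% (late over fibroblasts) and 0.00% (late over early) of all tested genes were called. Late replicate 2 was highest for 4 of 12, near the 26.1% of all genes with a count. Vegfa, the main ligand of Kdr, was at 52.5 and 68.2 CPM in fibroblasts, 236 and 162 CPM in early cells, 159 CPM in late replicate 1 but 485 CPM in late replicate 2 (edgeR adjusted p = 0.0778 for late and 0.125 for early cells over fibroblasts). Nrp2, a co-receptor, was at 71.0 and 15.1 CPM in early cells, against 542 and 626 CPM in fibroblasts (edgeR adjusted p = 0.0695), and Vegfd, a ligand of lymphatic growth, at 41.1 and 260 CPM against 263 and 293 CPM (edgeR adjusted p = 0.624). Angpt1, the activating ligand of Tek, was chosen after its values were seen. It was at 0.267 and 0.237 CPM in early cells, against 69.9 and 58.4 CPM in fibroblasts, a log2 fold change of -7.97 with an edgeR adjusted p of 0.0510, and at 3.58 CPM in late replicate 1 but 26.5 CPM in late replicate 2.

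Of 16 other endothelial transcription factors, 15 were tested and 1 was called in each comparison with fibroblasts, beside 1.53% (early) and 1.42% (late) of all tested genes. Gata2, a zinc-finger factor of blood and endothelial cells, rose in early cells, to 26.9 and 30.8 CPM against 3.29 and 1.65 CPM in fibroblasts (log2 fold change 3.55 ± 0.41, SE, edgeR adjusted p = 0.0371). It also rose in late cells, to 37.9 and 34.5 CPM (3.87 ± 0.42, edgeR adjusted p = 0.0389). The abundant members Elk3, Ets1 and Ets2, all ETS factors, had an edgeR adjusted p of 0.827, 0.291 and 0.124 for late cells over fibroblasts. Late replicate 2 was the highest library for 11 of the 16, and for 26.1% of all genes with a count. The median log2 ratio to the fibroblast mean was 1.78 in late replicate 2, with 0.02 in late replicate 1.

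Of 21 other endothelial surface and secreted proteins, 16 were tested, with 1 called in early cells (1.53% of all tested genes) and 1 in late cells (1.42%). Mcam, an adhesion molecule of endothelium, pericytes and smooth muscle, rose in late cells, to 69.9 and 76.6 CPM against 2.12 and 1.32 CPM in fibroblasts (log2 fold change 5.41 ± 0.36, SE, edgeR adjusted p = 0.0294). Cav1, the coat protein of caveolae, fell in early cells, to 239 and 179 CPM against 829 and 835 CPM in fibroblasts (log2 fold change -1.99 ± 0.25, edgeR adjusted p = 0.0412). Thbd and Aqp1, also abundant, had an edgeR adjusted p of 0.0869 and 0.576 for late cells over fibroblasts. Cldn5, the claudin of endothelial tight junctions, was chosen after its values were seen; it had 734 counts in late replicate 2, 1 in fibroblast replicate 2 and 0 in the other 4 libraries. The median log2 ratio to the fibroblast mean was 4.11 in late replicate 2, with -0.22 in late replicate 1, and 15 of 21 were highest in late replicate 2, as were 26.1% of all genes with a count.

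Of 12 arterial and venous genes, 11 were tested, with 1 called in late cells (1.42% of all tested genes) and 0 in early cells (1.53%) over fibroblasts. Notch1, a receptor of arterial specification, rose in late cells, to 42.0 and 61.8 CPM against 12.5 and 12.6 CPM in fibroblasts (log2 fold change 2.05 ± 0.29, SE, edgeR adjusted p = 0.0485). Efnb2, an arterial ephrin, was at 251 and 132 CPM in the late libraries, against 60.4 and 50.9 CPM in fibroblasts (edgeR adjusted p = 0.0657), and Ephb4 and Nr2f2, both venous genes, had an edgeR adjusted p of 0.265 and 0.121. Of 6 lymphatic genes 4 were tested and 0 called by edgeR over fibroblasts, a count that the same background shares would also give: Pdpn was at 73.2 and 20.3 CPM in the late libraries against 892 and 286 CPM in fibroblasts, Stab1 at 0.625 and 78.6 CPM against 20.1 and 86.6 CPM, and Prox1 at 1.83 and 52.6 CPM against 0.269 and 1.06 CPM. Each call in this and the 2 preceding paragraphs kept its direction and was lost when either fibroblast library was left out (edgeR adjusted p from 0.190 to 0.309). The late calls of Gata2, Mcam and Notch1 were also lost without late replicate 2 (0.0736, 0.0704 and 0.0800), and the early calls of Gata2 and Cav1 without early replicate 1 (0.100 for both) or early replicate 2 (0.0507 and 0.0636).

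The genes whose pattern over the 6 libraries was most like the mean log2 CPM of the 7 tested members were Myocd, a muscle coactivator, Afap1l1, Gimap8, Fn3k and Slc37a1. Their Pearson correlations lay between 0.996 and 0.998, a description of 6 points that share the high value of late replicate 2. Myocd reached 49.4 CPM in late replicate 2, with 1.83 CPM in late replicate 1, and did not exceed 0.206 CPM in any fibroblast or early library.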

How the data were processed

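Raw counts of reads per Ensembl gene, with no normalization, are what the authors deposited. The submitters' processing notes name Trimmomatic 0.36, STAR 2.5.2b, featureCounts, Subread 1.5.2 and build GRCm38. The labels' protocols give polyA selection. Annotation release, strandedness and handling of multiply mapped reads: not given in the sources used here. Symbols matched 48970 of 49315 identifiers, and positions and exon lengths came from GENCODE M21 on GRCm38. No library was dropped or imputed.

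A robust quasi-likelihood model of 3 group means was fitted to all 6 libraries with edgeR 4.0.16 in R 4.3.3, after its default filter (16688 genes left) and TMM scaling, with 3 residual degrees of freedom and a common biological coefficient of variation of 48.6%. A standard error is the fold change over the root of F. Ratios of pooled counts carry exact binomial 95% intervals. Alternatives included DESeq2 1.42.0, other scalings and leaving out each library. Members and lists were chosen with earlier results of these data known. By rule, the text names the 10 members, the called and the 3 most abundant genes of each other list, and the 5 genes most correlated with the members' mean. Angpt1 and Cldn5 fall outside this rule and were added after their values were seen. Abundant genes of lists of other cell types are given as sums.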

Additional observations from a re-analysis of the deposited data

How the results depend on the processing

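Of 250 values of the 21 member fold changes under 12 alternatives, 220 kept their direction and side of the threshold, 28 passed it only under the alternative, 13 of them with DESeq2 and 11 without late replicate 1, and 2 reversed. The reversals were Tek in late cells over fibroblasts (-1.45 without late replicate 2, 2.95 without late replicate 1) and Erg in late over early cells (-3.35 without late replicate 2, 4.05 without early replicate 2); the cause was not tested. Sox17 in early cells over fibroblasts has no value without fibroblast replicate 2, since no counts were left in either group. Members called went from 0 to 2 (early over fibroblasts), 8 (late over fibroblasts) and 7 (late over early) with DESeq2, to 2 for early cells with only the 2 groups compared, and to 1 for late cells over fibroblasts with no filter on low counts, the gene being Sox17. Leaving out a library gave 0 to 1, 0 to 8 and 0 to 7. Over all genes, early cells against fibroblasts had 255 calls, and 514 with total counts, 2337 with no filter, 4067 with DESeq2, 1469 with only the 2 groups and 0 to 823 without a library. Late cells against fibroblasts had 237 calls (107 higher, 130 lower), 300 with total counts (180 higher, 120 lower), 2495 with no filter, 4703 with DESeq2, 1016 with only the 2 groups and 0 to 1058 without a library. Late against early cells had 0 calls, 276 with no filter, 1110 with DESeq2 and 0 to 602 without a library. Total counts moved the median gene by 0.17 on the log2 scale in both comparisons with fibroblasts. With the replicate number as a block, 26 and 9 genes were called against fibroblasts and 0 members; same-numbered libraries deviated together with correlations of 0.0859 to 0.238, of which 2 of 3 were above 0.1, and the labels tie no numbers together, so the block was not made the main fit and whether the numbers mark a shared batch was not tested. Each of Gata2, Cav1, Mcam, Notch1, Rgs5, Krt8, Cdh1 and Foxa2 missed the threshold with the block (edgeR adjusted p from 0.0586 to 0.0801). Cav1 in early cells also missed it with total counts (0.0501) and Rgs5 in early cells with no filter (0.0540). Fits without a library of a group assume that the lone one varies like the other groups. Members with under 10 counts in a library are limited by depth.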
